A study of Mus musculus with 18 samples.

Results

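The comparison followed HPRT-knockdown cells over the last step of a neuronal differentiation, from spherical neural masses (SNM), which are clumps of neural precursors that can be grown in suspension, to the stage that the labels name the final neuron stage and that is called the final stage here. It rested on 6 of the 18 arrays of the series, 3 for each stage. A probe was a member when its detection p was under 0.05 on all 3 arrays of either stage. By this rule 21125 of 45281 probes were members, and they carried 14912 gene symbols. Of these, 18268 were detected on all arrays of both stages, 1839 were detected throughout the SNM arrays only and 1018 throughout the final arrays only. The 362 probes whose detection p lay within 0.01 inside the threshold had a median log2 signal of 4.75, while the 272 within 0.01 outside it had a median of 4.73.

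All cells came from D3, a mouse embryonic stem (ES) line of strain 129s2/SvPas that had been kept on embryonic fibroblast feeder cells. Knockdown cells carried a short hairpin RNA (shRNA) against HPRT and control cells an shRNA against luciferase, which mammalian cells lack, so that both had been virally transduced. The protocol was one for dopaminergic neurons. Total RNA from independent replicate cultures had been pooled by condition before it was put on Illumina arrays. Whether the 3 arrays of a condition shared a single pool is not stated, and where they did, their spread and every p-value given here cover the error of the arrays and not that between cultures. In RNA from a mixed culture, fewer cells of a type and less RNA per cell cannot be told apart. HPRT, encoded by Hprt1 on the X chromosome, returns hypoxanthine and guanine to the purine nucleotide pool, and its loss in people causes Lesch-Nyhan disease.

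Neural precursors give rise to neurons and to glia. A precursor that becomes a neuron leaves the cell cycle and passes through a phase set by proneural transcription factors such as Neurog2, after which it makes axonal cytoskeleton, transmitter enzymes and synaptic vesicles. A precursor that becomes an oligodendrocyte expresses Olig1, Olig2, Nkx2-2 and Sox10, passes through a dividing Pdgfra+ stage and a committed Gpr17+ stage, and then makes myelin, the lipid-rich membrane that wraps axons.

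The stages differed somewhat in depth of detection. Each SNM array detected 21853 to 22202 probes and each final array 20911 to 21278, against 18827 to 22202 over the whole series. The part of this difference in the counts below was not tested. Pearson correlations across probes, which are not independent replicates, were 0.9951 to 0.9967 among SNM arrays, 0.9938 to 0.9962 among final arrays and 0.9655 to 0.9692 between the stages. The median SD of a probe over 3 arrays was 0.12 log2 units over the SNM arrays and 0.11 over the final ones. With limma over all 18 arrays, a probe was called when its Benjamini-Hochberg adjusted p was under 0.05 and its change was at least 1.5-fold. By that rule 2925 probes rose, which was 13.8% of those tested, and 3126 fell, which was 14.8%. The same count by gene, with the brightest probe standing for each gene, gave 14.0% of 14886 genes rising and 15.9% falling, and the gene lists below are to be read against these shares. The arrays of the 2 stages did not overlap for 6026 of the 6051 called probes, against 63.0% of all tested probes. At 2-fold or more 1333 probes rose and 1316 fell, and at 8-fold or more 98 rose and 34 fell. The median change over all tested probes was -0.02.

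The targeted gene was measured by 3 probes. At the brightest one, the log2 signal of Hprt1 was 9.34, 9.47 and 9.50 on the SNM arrays and 6.56, 6.64 and 6.60 on the final arrays. The signal was thus low at the final stage and intermediate at the SNM stage, where control cells had 11.20, and it fell by 2.84 between the stages (SE 0.08, limma adjusted p = 5.07e-14). In control cells the same probe went from 11.20 to 11.05. Before differentiation it was at 7.95 in knockdown ES cells and 12.04 in control ES cells, so the knockdown signal was higher in the SNM than before or after. The paper reports, without showing the data, that knockdown cells had very low HPRT expression throughout. At the second probe the knockdown arrays went from 8.22, 8.29 and 8.20 to 5.70, 5.65 and 5.64. The third was not detected on any final array and fell at least 3.73-fold. The depth of the knockdown therefore differed between the stages compared, and its part in the other changes was not tested.

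Many of the largest gains were in genes of oligodendrocytes. Opalin, a membrane protein of the myelin paranode, had log2 signals of 4.86, 4.49 and 4.56 in the SNM, where 1 of 3 arrays detected it, and 12.09, 11.79 and 11.91 at the final stage. It rose by 7.29 (SE 0.11, limma adjusted p = 9.37e-17), and since its SNM mean of 4.64 lay at the limit of detection the size of the rise is uncertain. Mag, the myelin-associated glycoprotein, rose by 5.57 and Enpp6, a choline phosphodiesterase of newly formed oligodendrocytes, by 5.84. Among the 12 largest rises there were also Mbp (5.35 at its more responsive probe), Trf (5.17), Pllp (4.40), the glial receptor Gpr37l1 (5.49), the semaphorin receptor Plxnb3 (4.39) and the cold-shock protein Ybx3 (4.40). Inmt, an indolethylamine methyltransferase, rose at least 58.5-fold and Lcn2, the siderophore-binding lipocalin, at least 20.15-fold. Inmt, Lcn2 and Ybx3 also rose in control cells, and for Lcn2 the difference between the changes (-0.29) was not called.

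The largest losses were mostly genes of striated muscle. Actc1, the cardiac alpha-actin that developing skeletal muscle also makes, had log2 signals of 10.04, 10.10 and 10.11 in the SNM and 5.67, 5.40 and 5.44 at the final stage. It fell by 4.58 (SE 0.09, limma adjusted p = 1.49e-15). The myosin genes Myh3, Myl1, Myl4 and Myh8 had changes of -4.25, -4.04, -3.93 and -3.67, with Myh3 still detected on 2 of 3 final arrays. Cox8b, a muscle form of a cytochrome oxidase subunit, fell at least 11.6-fold, and Car3, a carbonic anhydrase abundant in muscle, fell by 4.08. The rest of the 12 were the cartilage collagen Col2a1 (a change of -4.13), Angptl4 (-4.01), the basal keratin Krt14 (-3.78), the axonal adhesion protein Cntnap2 (-3.60) and the Y-linked translation factor gene Eif2s3y (-4.21).

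**Figure D1:**
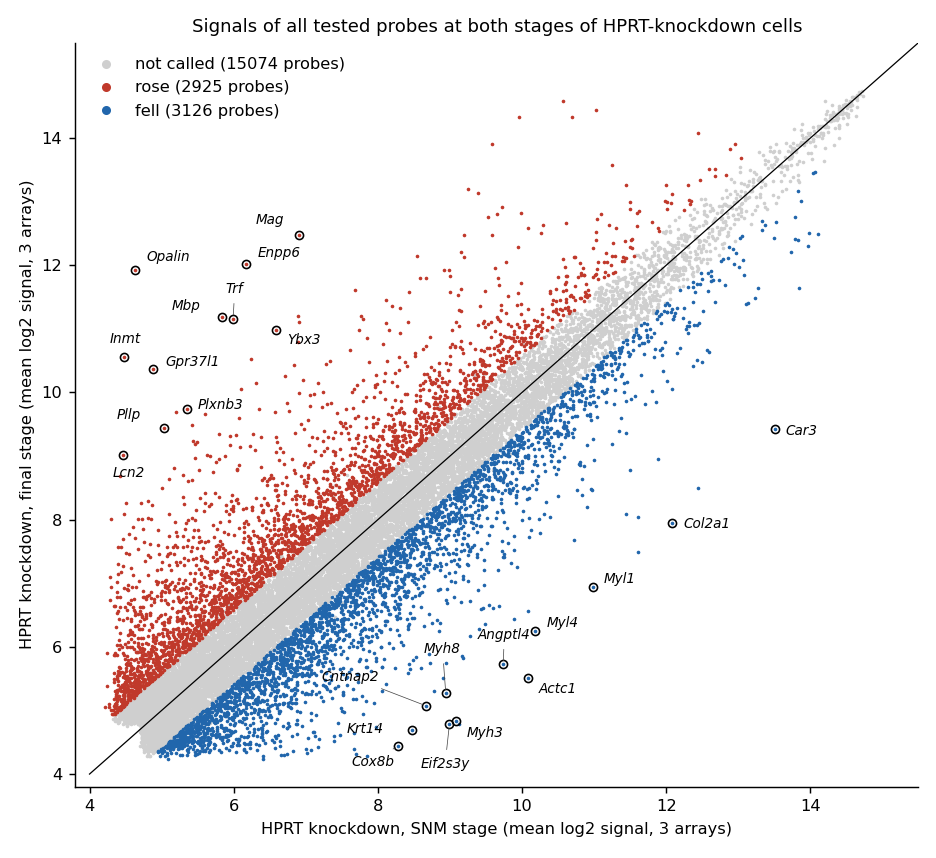
Mean log2 signal of each tested probe in HPRT-knockdown cells at the SNM stage (horizontal axis) and at the final stage (vertical axis), each the mean of 3 arrays, with called probes coloured and genes with the largest changes labelled. Most probes lie along the diagonal, with a median change of -0.02, while Opalin at 4.64 and 11.93 and Actc1 far on the opposite side stand away from it.

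Myelin membrane genes rose as a group. All 17 of the tested genes on a list of 20 rose and 0 fell, with a median log2 change of 3.27. Of the 17, 12 were detected on all SNM arrays and the others entered through the final stage, where they were brighter. The remaining members, Ermn, Gjb1 and Hapln2, were not detected on all arrays of either stage. Mbp, the basic protein that compacts myelin, had log2 signals of 9.94, 9.89 and 10.04 at its brightest probe in the SNM and of 14.35, 14.33 and 14.33 at the final stage. Mag went from 6.96, 6.85 and 6.93 to 12.44, 12.49 and 12.50. In both genes every final array lay above every SNM array by several log2 units. Mog, the glycoprotein of the outermost lamella, was on no SNM array and rose at least 4.18-fold, and Gjc3, a glial connexin, did so at least 4.315-fold. The change of Ndrg1, at 1.00, was among the smaller ones of the group.

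The promoter of Opalin is shown because this gene was among those that rose most. It is given 5′ to 3′ on the strand of the gene (RefSeq, GRCm38.p6, chr19:41077114-41077313, minus strand) and ends at the base before the annotated start. The capitals mark ACAAAG, the letters of a Sox protein core motif.

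Opalin: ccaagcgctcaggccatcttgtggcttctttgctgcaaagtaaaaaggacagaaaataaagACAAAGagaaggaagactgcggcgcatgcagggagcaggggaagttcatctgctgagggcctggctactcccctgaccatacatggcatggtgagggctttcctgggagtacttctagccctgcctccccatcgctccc

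These letters were searched on both strands in the 250 bases before each start, where CTTTGT is the reverse reading. They occurred in 7 of 17 promoters, 41.2%, of the 12 myelin genes that rose and had at least 1 promoter in the RefSeq table. Over all 32851 promoters the share was 16.5%. Counted by gene, 6 of the 12 had these letters, against 18.6% of all genes. Mag has several listed promoters. One of them (chr7:30914864-30915063) overlaps the one below and holds the same site, which is thus counted more than once. Another (chr7:30914322-30914521) has none of these letters in its 200 bases. The Mag promoter below (chr7:30914923-30915122, minus strand) holds the reverse reading of the Sox letters 67 bases before the start. Its ATTGG, also in capitals, is the reverse of CCAAT.

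Mag: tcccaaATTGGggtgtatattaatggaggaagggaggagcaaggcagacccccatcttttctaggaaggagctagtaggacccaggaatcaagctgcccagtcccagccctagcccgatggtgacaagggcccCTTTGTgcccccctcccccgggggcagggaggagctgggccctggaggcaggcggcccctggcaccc

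Transcription factors of the oligodendrocyte lineage were the next group, with 10 of 14 tested genes rising and 0 falling. The median change was 1.02, or 0.97 with undetected genes set at their bounds. Sox10, which switches on myelin genes, had log2 signals of 9.22, 9.32 and 9.23 in the SNM and 13.18, 13.27 and 13.16 at the final stage, a rise of 3.95 (SE 0.08, limma adjusted p = 2.61e-15). Nkx2-2 went from 8.25, 8.19 and 8.14 to 11.31, 11.39 and 11.39. Olig2 rose by a smaller 1.36, and Olig1, with a mean of 12.94 in the SNM, changed by 0.37 and was not called. Sirt2, a deacetylase of oligodendrocytes, rose by 3.05 and Zfp365 by 2.93. Myrf, the regulator of myelin genes, was detected on no array of either stage at its probe.

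Genes of precursors and committed cells rose in 13 of 16 tested cases and fell in 1, with a median of 2.09. Gpr17, the receptor that marks committed precursors, had log2 signals of 8.68, 8.75 and 8.56 in the SNM and 11.90, 11.84 and 11.67 at the final stage. Enpp6 went from 5.95, 6.21 and 6.38 to 11.46, 11.98 and 12.61, and Bcas1, which marks newly myelinating cells, from 10.68, 10.79 and 10.63 to 14.33, 14.32 and 14.34. None of these overlapped between the stages. The growth factor receptor Pdgfra and the proteoglycan Cspg4, both of dividing precursors, rose by 1.16 and 0.98. Pdgfra already had a mean log2 signal of 8.13 in knockdown ES cells, so its signal was not particular to these precursors. Ptprz1, a phosphatase shared with radial glia, was the 1 that fell (-0.94).

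Enzymes and channels of mature oligodendrocytes moved less uniformly, with 7 of 18 tested genes rising, 3 falling and a median of 0.30. Among those that rose were enzymes that make the galactolipids of myelin. Fa2h, which hydroxylates their fatty acids, went from 6.20, 6.44 and 6.09 to 10.57, 10.60 and 10.41, and Ugt8a, which adds the galactose, and Gal3st1, which sulphates it, rose by 3.96 and 3.84. Trf, the iron carrier, went from 6.15, 6.02 and 5.81 to 11.36, 11.17 and 10.96. Car2, Anln and Efnb3 fell by 0.73, 0.74 and 0.94.

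The general lipid pathways did not follow. Of 21 cholesterol synthesis genes 1 rose, 3 fell and the median was 0.01, a value that was negative in 1 of the processing alternatives. Hsd17b7, an enzyme of the pathway, had log2 signals of 10.07, 10.09 and 9.91 in the SNM and 10.67, 10.75 and 10.77 at the final stage, a rise of 0.71. Of 13 genes of fatty acid and sphingolipid synthesis 2 rose and 1 fell, with Scd1, the stearoyl desaturase, rising by 1.04 and Acly, which makes cytosolic acetyl-CoA, falling by 0.78.

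**Figure D2:**
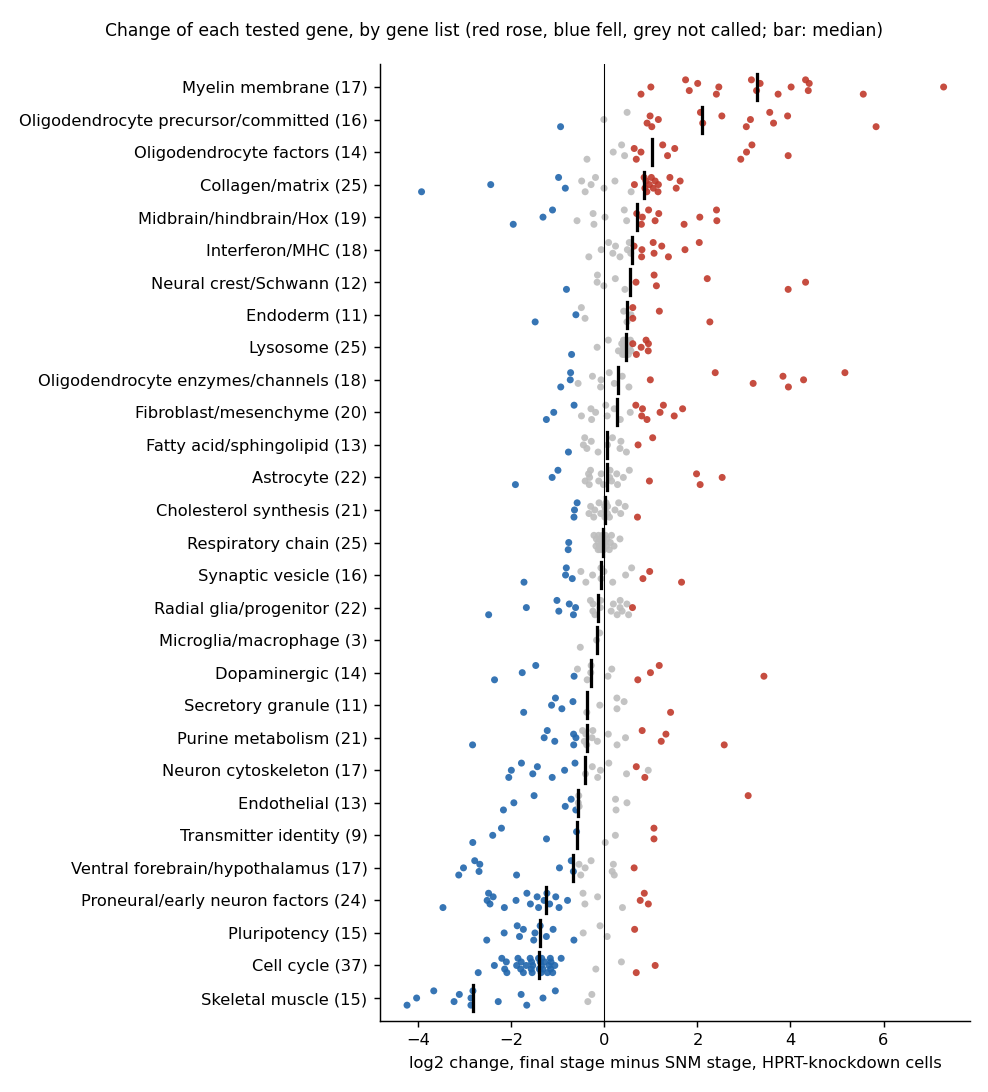
Log2 change from the SNM to the final stage of each tested gene, 1 row for each gene list, with points coloured by whether the gene rose, fell or was not called and a bar at the list's median. Myelin membrane genes lie wholly to the right with a median of 3.27, and muscle genes to the left with a median of -2.83.

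By count, genes of the neuronal cytoskeleton and growth cone went against the name of the stage. Of 17 tested genes 2 rose and 8 fell, with a median of -0.41. Their summed log2 signal overlapped between the stages, at 14.39 to 14.59 over the SNM arrays and 14.38 to 14.62 over the final arrays. Stmn2, a microtubule regulator of growing axons, had log2 signals of 11.04, 10.96 and 10.97 in the SNM and 8.97, 8.90 and 8.94 at the final stage, a fall of 2.06 (SE 0.05, limma adjusted p = 8.63e-15). Ina, the neurofilament protein internexin, went from 8.02, 8.36 and 8.41 to 6.05, 6.27 and 6.46, and Cdk5r1, the activator of Cdk5, fell by 1.79. Final arrays were the lower ones throughout for these genes. Dcx, of migrating neuroblasts, fell by 0.63, a call that was lost without the SNM array 2 (-0.58) and under both scalings without background correction. Rtn1 and Gap43 were the exceptions and rose by 0.87 and 0.68. Tubb3 was detected on 1 SNM array and 0 final arrays and Nefl on 0, so that neither bears on the label.

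Synaptic vesicle genes were split, with 3 of 16 rising and 4 falling, and their median of -0.07 turned positive in 1 alternative. Their summed log2 signal was 13.37 to 13.42 over the SNM arrays and a higher 13.48 to 13.60 over the final arrays. Syt1, the calcium sensor of release, went from 9.26, 9.30 and 9.35 to 7.52, 7.55 and 7.64, and Syp, the vesicle protein synaptophysin, from 9.87, 9.76 and 9.58 to 9.10, 8.92 and 8.67. In both the final arrays were lower without overlap. Syt4, Sv2a and Syngr3 rose by 1.66, 0.97 and 0.83. Snap25 was detected on no array of either stage. Of 11 genes of dense-core vesicles 1 rose and 5 fell, among them the prohormone convertase Pcsk2 (-1.74, still detected on 1 final array) and the granins Chgb (-1.05) and Scg2 (-0.92).

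Transcription factors of early neurons fell in 17 of 24 tested genes and rose in 3, with a median of -1.27. All 24 were detected on all SNM arrays and 19 on all final arrays, so the rest were tested only through the stage where they were brighter. Isl1, of motor and sensory neurons, had log2 signals of 8.73, 8.76 and 8.85 in the SNM and 5.22, 5.37 and 5.33 at the final stage, a change of -3.47 (SE 0.11, limma adjusted p = 1.87e-13). Neurog2, the proneural factor, went from 7.09, 7.24 and 7.05 to detection on no final array, at least 5.22-fold lower, and Lhx5 was at least 3.86-fold lower. Insm1, Elavl2 and Sox11, which act as precursors turn into neurons, fell by 2.49, 2.46 and 1.90. Sox4, Pou4f1 and Dll3 rose by 0.94, 0.86 and 0.77.

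Transmitter genes fell in 5 of 9 tested cases and rose in 2, with 6 of the 9 detected on all SNM arrays and 9 on all final arrays. Gad1, which makes GABA, had log2 signals of 9.60, 9.81 and 9.77 in the SNM and 7.47, 7.50 and 7.57 at the final stage, and Slc32a1, which loads GABA into vesicles, went from 8.79, 8.87 and 8.82 to 6.49, 6.42 and 6.36. The vesicular glutamate transporter Slc17a6 went from 8.60, 8.85 and 8.69 to a mean of 5.88 ± 0.11 (SD, n = 3). GABA and glutamate genes were both lower on every final array. Chat and Slc18a3, which make acetylcholine and load it into vesicles, were on no SNM array and rose at least 1.81-fold and 1.80-fold.

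The dopaminergic list, the neurons the protocol is aimed at, gave 4 rises and 4 falls among 14 tested genes. Th and Slc6a3, the defining enzyme and transporter, and Pitx3 were each detected on at most 1 array of either stage. Ddc, which makes dopamine from its precursor and is also used for serotonin, had log2 signals of 7.67, 7.69 and 7.95 in the SNM and 11.15, 11.22 and 11.23 at the final stage, a rise of 3.43 (SE 0.08, limma adjusted p = 9.44e-15). The midbrain factor Otx2 went from 9.84, 10.09 and 10.35 to 7.40, 7.92 and 7.86, and the floor plate genes Lmx1a and Corin fell, with changes of -1.48 and -1.77. En1 and En2, of the midbrain and anterior hindbrain, rose by 0.99 and 1.18. By count, genes called lower were thus at least as many as those called higher in each of these neuron lists. Summed signals were lower at the final stage for early neuron and transmitter genes and higher for synaptic vesicle and dopaminergic genes. The dopaminergic sum includes Ddc, the largest rise of that list, while the list's median change was -0.29. That sum therefore does not show a rise of dopaminergic genes as a group. For cytoskeleton and dense-core vesicle genes they overlapped. These values are of RNA. The paper reports that β-III tubulin and TH protein were seen about equally in knockdown and control cells at this stage. For RNA, its qPCR found no rise of β-III tubulin in knockdown cells and a stronger rise of the dopamine transporter (Slc6a3) than in control cells. It calls its TH RNA results inconsistent. The arrays, with Tubb3 and Slc6a3 hardly detected, do not bear on these qPCR results.

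**Figure D3:**
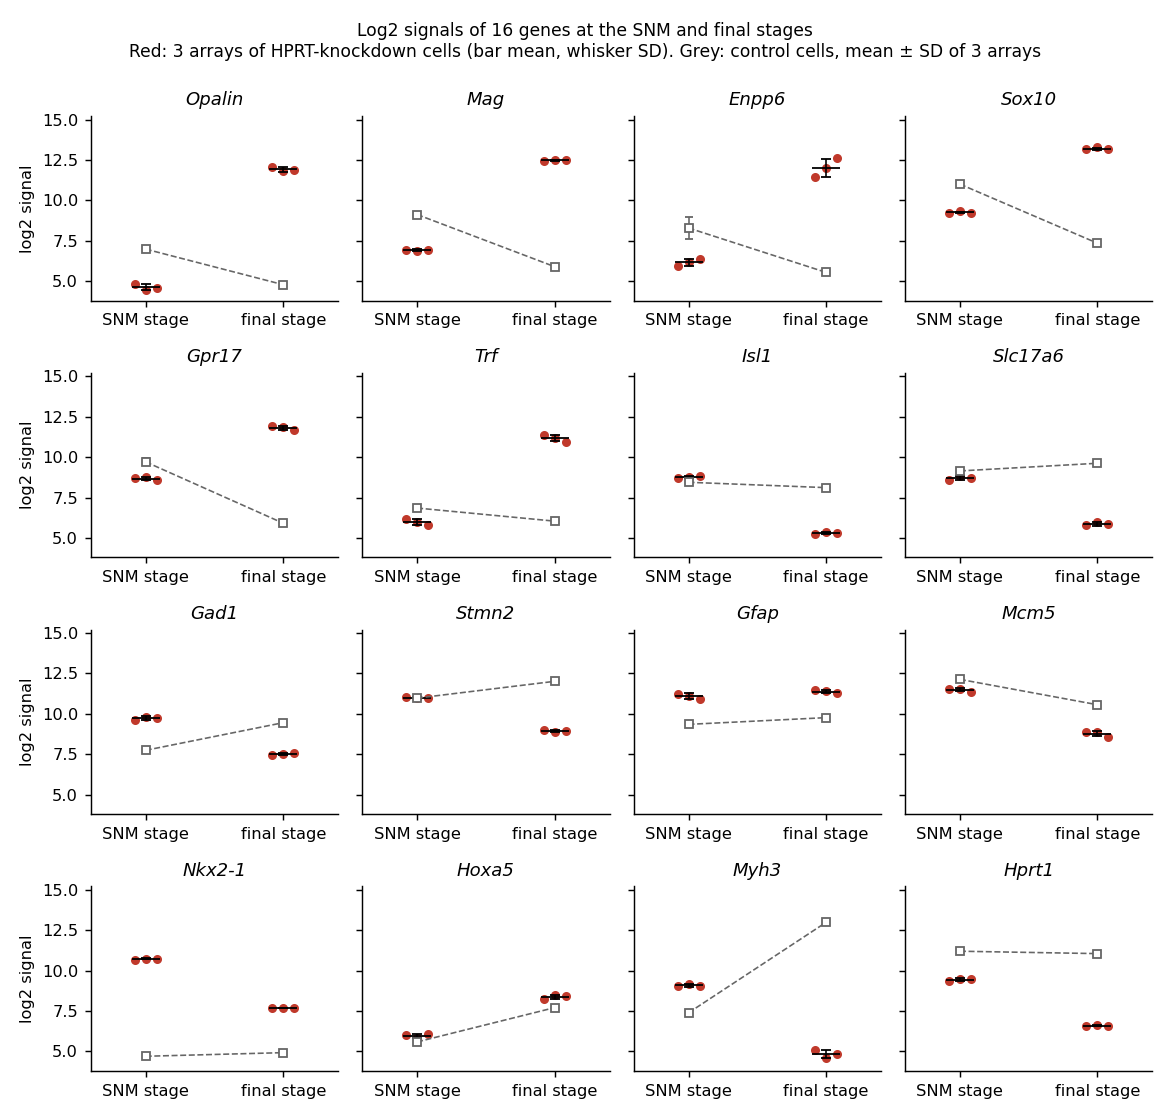
Log2 signal of 16 genes on each array of HPRT-knockdown cells, with 3 SNM and 3 final arrays as red points, a bar and whisker at their mean and SD, and grey squares at the mean and SD of 3 control arrays. The red points of the stages lie apart for Opalin, Mag, Sox10 and Stmn2 and close together for Gfap, with means of 11.10 and 11.38.

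Astrocyte genes changed little as a group, with 4 of 22 rising, 3 falling and a median of 0.05 that was negative in 2 alternatives. Gfap, the astrocyte intermediate filament, had log2 signals of 11.25, 11.12 and 10.92 in the SNM and 11.45, 11.39 and 11.29 at the final stage, and its change of 0.28 stayed under the 1.5-fold minimum. Aqp4, the water channel of astrocyte endfeet, was at 9.08, 9.60 and 10.00 and then at 9.29, 10.03 and 10.58, with arrays that overlapped. S100b, which oligodendrocytes also make, rose by 2.53 and the glutamate transporter Slc1a2 by 2.06. The astrocyte connexin Gja1 and Agt, angiotensinogen, fell, with changes of -1.13 and -1.91, and Gjb6 was the other gene called lower.

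Genes of radial glia and neural progenitors fell in 7 of 22 cases and rose in 1, with a median of -0.15. Hes5, a target of Notch signalling, had log2 signals of 9.35, 9.24 and 9.58 in the SNM and 6.83, 6.97 and 6.89 at the final stage. Nes, the filament nestin, went from 9.15, 9.11 and 8.91 to 7.62, 7.31 and 7.19. Both were lower on every final array, whereas Sox2 (0.14) and Hes1 (-0.08) were not called. The paper, by contrast, reports from qPCR a marked further rise of Sox2 in knockdown cells at this stage.

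Cell cycle genes fell almost throughout. Of 37 tested genes 33 fell and 2 rose, with a median of -1.40. Mcm5, of the replicative helicase, had log2 signals of 11.56, 11.56 and 11.37 in the SNM and 8.90, 8.85 and 8.59 at the final stage, and Tyms, which makes thymidylate, went from 9.94, 9.90 and 9.82 to 7.50, 7.65 and 7.41. These S phase genes fell by 2.71 and 2.37. Among mitotic genes Top2a went from a mean of 9.10 ± 0.21 (SD, n = 3) to 7.28, 7.24 and 7.37 and Ccnb1 from 10.49, 10.47 and 10.52 to 8.92, 8.92 and 8.94, and Cdk1 fell by 1.36. The 2 that rose, Cdkn1c (1.09) and Cdkn1a (0.68), encode inhibitors of cyclin-dependent kinases.

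Promoters of 3 of the mitotic genes are shown because they fell together, by 1.36 to 1.80. They are 200 bases each, 5′ to 3′ on the strand of the gene, ending at the base before the annotated start (RefSeq, GRCm38.p6). Capitals mark CCAAT or its reverse ATTGG, and TTTGAA or its reverse TTCAAA, the letters of the cell cycle homology region. The positions are chr11:99024190-99024389 for Top2a, chr10:69352913-69353112 for Cdk1 and chr13:100786487-100786686 for Ccnb1, all on the minus strand.

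Top2a: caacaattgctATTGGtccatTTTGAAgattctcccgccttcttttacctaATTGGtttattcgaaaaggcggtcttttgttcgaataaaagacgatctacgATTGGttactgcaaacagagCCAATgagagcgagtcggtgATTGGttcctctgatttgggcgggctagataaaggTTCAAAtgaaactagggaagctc
Cdk1: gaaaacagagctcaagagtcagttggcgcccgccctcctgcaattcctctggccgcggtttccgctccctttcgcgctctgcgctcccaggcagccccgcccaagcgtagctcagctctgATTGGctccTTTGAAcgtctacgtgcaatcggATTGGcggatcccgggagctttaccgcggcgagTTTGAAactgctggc
Ccnb1: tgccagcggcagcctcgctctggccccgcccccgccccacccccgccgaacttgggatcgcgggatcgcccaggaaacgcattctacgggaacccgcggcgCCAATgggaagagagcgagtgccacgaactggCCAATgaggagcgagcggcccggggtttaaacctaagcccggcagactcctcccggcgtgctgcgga

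Top2a had 5 CCAAT boxes in this window, Cdk1 had 2 and Ccnb1 had 2. Of the 28 promoters of the 27 fallen cell cycle genes that matched the table, 20 held CCAAT on either strand within 250 bases of the start, which was 71.4% against 33.8% of all promoters. TTTGAA stood in 7 of the 28, against 16.0% of all promoters, and GCGGGAA, an E2F motif, in 14.3% of the 28 against 3.82%. These counts describe letters and show no binding.

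Genes of the ventral forebrain fell more often than they rose, and a joint list of midbrain, hindbrain and Hox genes did the reverse. Of 17 tested genes of the ventral forebrain and hypothalamus 9 fell and 1 rose, with a median of -0.67, or -0.55 at bounds. Of the 17, 11 were detected on all final arrays, and the median was -0.34 with quantile normalization without background correction and -2.29 over the 10 genes detected on every array of both stages. Nkx2-1, which specifies hypothalamus and ventral telencephalon, had log2 signals of 10.68, 10.73 and 10.73 in the SNM and 7.69, 7.67 and 7.70 at the final stage, a change of -3.03 (SE 0.06, limma adjusted p = 1.18e-15). Dlx1, of GABAergic precursors, went from 9.43, 9.42 and 9.38 to 6.38, 6.25 and 6.20. Fezf1, Dlx2 and Nkx2-4 fell too, with changes of -2.79, -2.70 and -2.68, and Shh, the ventralising signal, fell by 1.89.

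Of 19 tested genes of midbrain, hindbrain and the Hox clusters 10 rose and 3 fell, with a median of 0.69, or 0.60 at bounds. Of the 19, 16 were detected on all SNM and 17 on all final arrays, and with no detection filter the median over 29 genes was 0.02. Hoxa5, which patterns hindbrain and cervical cord, had a mean log2 signal of 5.97 ± 0.12 (SD, n = 3) in the SNM and 8.24, 8.47 and 8.43 at the final stage. Hoxb4 went from 4.86, 5.16 and 5.53 to 6.95, 7.67 and 8.18. Hoxb7 rose by 0.81, while Hoxb8 was detected on no array and Hoxb9 was not tested. Otx1, Fgf8 and Irx3 fell by 1.96, 1.32 and 1.12.

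Markers of other cell types moved with these groups, and their part in the changes of the neural genes was not tested. Of 15 tested skeletal muscle genes 13 fell and 0 rose, with a median of -2.83, or -1.66 with quantile normalization without background correction. The summed signal of the list was 12.51 to 12.61 on a log2 scale over the SNM arrays and 9.59 to 10.00 over the final arrays, and the number of its genes detected on all arrays went from 15 to 8. Myh8, the perinatal myosin, had log2 signals of 9.02, 9.16 and 8.65 and then 5.41, 5.42 and 4.98, and Chrna1, a subunit of the muscle acetylcholine receptor, fell at least 6.28-fold.

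Of 20 fibroblast and mesenchyme genes 8 rose and 3 fell, with a median of 0.27, and the summed log2 signal went from 14.22 to 14.33 over the SNM arrays to 15.07 to 15.20 over the final arrays. Acta2, smooth muscle actin, had log2 signals of 11.06, 11.04 and 11.03 and then 12.72, 12.73 and 12.73, and the matrix protein Sparc rose by 1.27. Lum and Fn1 fell by 1.09 and 1.25. Col1a1 rose at its brightest probe (0.80) while another of its probes fell. Of 25 genes of collagens and matrix 14 rose and 4 fell, with a median of 0.85. Col9a1 and Timp3 rose by 1.63 and 1.54, and the cartilage genes Col2a1, at 12.45, 12.58 and 12.30 and then 8.51, 8.58 and 8.43 at its brightest probe, and Acan fell.

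Endothelial genes fell in 6 of 13 cases and rose in 1, with a median of -0.56, or -0.16 over the 8 detected on every array of both stages. Cldn5, the tight junction protein of brain vessels, fell at least 3.16-fold to detection on no final array, and Emcn, endomucin, rose by 3.09. Their summed log2 signal was 11.43 to 11.54 and then 11.72 to 11.74. Of 16 microglial genes 12 were on no array of either stage, Cx3cr1 and Ptprc included, and the 3 that were tested gave no call. The neural crest and Schwann list had 6 rises and 1 fall among 12, and it shares Sox10 with the oligodendrocyte lists. Of 11 endoderm genes 4 rose and 2 fell, with Afp on no array.

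Pluripotency genes were still present in the SNM and fell in 11 of 15 tested cases, with 1 rise and a median of -1.38. Pou5f1 had log2 signals of 9.88, 9.82 and 9.85 in the SNM and 7.42, 7.35 and 7.19 at the final stage, and Nanog went from 9.71, 9.84 and 9.90 to 8.36, 8.57 and 8.36. The summed log2 signal went from 13.28 to 13.33 down to 12.30 to 12.38. The group was thus lower but not lost, as 15 of its members were detected on all final arrays.

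Genes of antigen presentation and interferon response rose in 9 of 18 cases and fell in 0, with a median of 0.60. Psmb8, an immunoproteasome subunit, had log2 signals of 6.47, 6.06 and 6.38 and then 8.38, 8.39 and 8.26, and the class I genes H2-D1 and H2-K1, whose probes may read closely related copies, rose by 1.73 and 1.07. Interferon-induced Ifit3 (0.33) and Usp18 (0.09) were not called. Lysosomal genes rose in 6 of 25 cases and fell in 1, with a median of 0.46. Among the rises, those of Ctsb, Arsa, Psap, Ctsd and Hexa were between 0.61 and 0.95. Ctsa fell by 0.71 at its brightest probe and was called the other way at another.

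Purine genes, the pathway of the targeted enzyme, were split with 4 of 21 rising, 7 falling and a median of -0.38. Ampd3, which deaminates AMP, had log2 signals of 6.88, 6.92 and 7.01 in the SNM and 9.48, 9.50 and 9.55 at the final stage, and Adssl1, Nt5e and Ada rose by 1.32, 1.22 and 0.81. Apart from Hprt1 itself, the falls were those of the synthetic enzymes Gart, Prps1, Adss, Adsl and Gmps and of the nucleotidase Nt5c2, between 0.61 and 1.30 in size. Aprt, the other salvage phosphoribosyltransferase, changed by 0.27 and was not called. Respiratory chain genes gave 0 rises and 2 falls among 25, with a median of -0.04.

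The same step in control cells was used to ask which of these changes differed with the knockdown. The 6 control arrays do not enter the knockdown change itself, but they were normalized and fitted together with the knockdown arrays and share the estimate of spread. The difference uses the same 6 knockdown arrays again. The 6 largest differences named each way were taken from probes that were also called in the knockdown comparison. It is therefore not a separate check of the knockdown changes. Of 22160 probes tested, the change from SNM to final stage was called higher in knockdown than in control cells for 3044, which was 13.7%, and lower for 3287, which was 14.8%. By gene the shares were 13.3% and 16.0% of 15550, and in control cells alone 15.4% of 14623 genes rose and 14.8% fell.

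The oligodendrocyte lists parted between the cell lines. All 17 myelin membrane genes had a higher change in knockdown than in control cells, where 8 of 14 fell and 1, Cldn11, rose, with a median of -1.11. Opalin went from a mean of 6.99 to 4.79 in control cells, a difference between the changes of 9.49 (SE 0.15, limma adjusted p = 7.03e-17), and Mag went from 9.13 to 5.91, a difference of 8.79. For Opalin the control final mean and the knockdown SNM mean of 4.64 lay near the limit of detection, so its difference has no exact size. The mean signals of Opalin and Mag were thus higher in control than in knockdown SNM and lower in control cells at the final stage. Sox10 did likewise, at 11.01 and 7.36 in control cells, with a difference of 7.60. Differences were also called higher for 11 of 14 lineage factors, 12 of 16 precursor genes and 8 of 18 mature genes, and lower for 0, 1 and 4. Pdgfra was the precursor gene with a lower change, -0.85, since it rose by 2.01 in control cells. Cholesterol genes, which fell in 14 of 21 cases in control cells, had a higher change in knockdown cells in 12.

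Neuronal lists parted the other way. In control cells 10 of 18 cytoskeleton genes and 13 of 16 synaptic vesicle genes rose, with medians of 0.85 and 1.00, and the difference was called lower in knockdown cells for 10 of each. Stmn2 went from 10.97 to 12.01 in control cells, a difference of -3.09, and Gad1 rose by 1.71 there, a difference of -3.92. Nefm (0.69) and Syt4 (0.94) were the exceptions, with a higher change in knockdown cells. Early neuron factors fell less in control cells, with a median of -0.33, and the difference was lower for 13 of 24 and higher for 3. Ddc rose in control cells too, by 1.02, and its difference was 2.41.

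Among the probes named for a lower change in knockdown cells, muscle genes came first. Muscle genes rose in 18 of 19 control cases, with a median of 5.05, and the difference was lower for all 19 of the genes tested. Myh8, Tnnc2 and Myh3 had differences of -10.12, -10.05 and -9.83. Fibroblast genes rose in 16 of 20 control cases and had a lower change in knockdown cells in 15.

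Cell cycle genes fell in control cells too. There 33 of 36 tested genes fell, with a median of -1.35, and the difference was called for 4 of 37: Mcm6, Tyms and Mcm5 had differences of -0.92, -1.18 and -1.15 and Cdkn1c one of 0.62. On the joint list of midbrain, hindbrain and Hox genes 11 of 20 rose and 5 fell in control cells, with a median of 0.66, and the differences were higher for 4 and lower for 6 of 20. Hoxa5 had a difference of 0.29 (limma adjusted p = 0.363), and Hoxb5 one of -2.99. Nkx2-1 was at 4.71 in control SNM, against 10.72 in knockdown SNM, so its change of -3.03 had no counterpart there, and 10 of 17 ventral forebrain genes had a lower change. Pluripotency genes had a lower change in knockdown cells in 10 of 15 cases, with differences of -1.82 for Pou5f1 and -1.14 for Nanog.

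**Figure D4:**
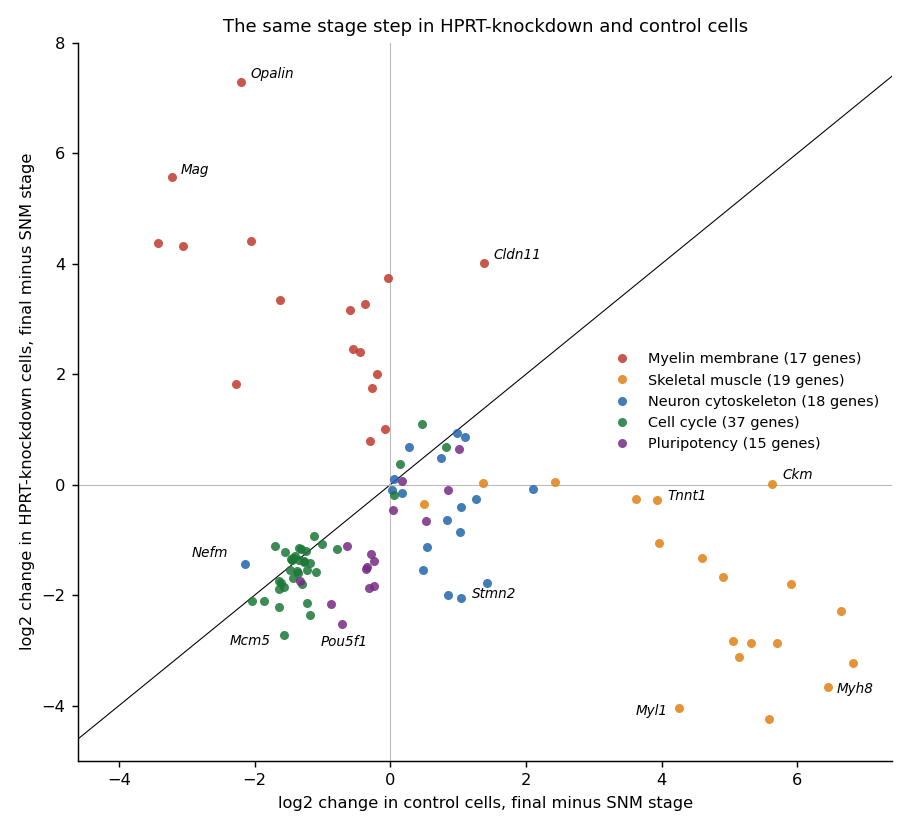
Log2 change from the SNM to the final stage in control cells (horizontal axis) and HPRT-knockdown cells (vertical axis) for the genes of 5 lists that were tested for a difference, some of which were tested in control cells only, with the line of equal change. Most myelin genes lie high and to the left, with Opalin at -2.20 and 7.29, most muscle genes far to the right and low, with Myh8 at 6.45 and -3.67, and most cell cycle genes lie near the line, with Cdk1 at -1.35 and -1.36, while Mcm5 at -1.57 and -2.71 lies below it.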

How the data were processed

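RNA was measured on MouseWG-6 v2 bead arrays (Illumina). The deposited table holds a linear bead intensity for each probe that the authors had neither background-corrected nor normalized, and a detection p-value for each, per the file headers. Replicate cultures were pooled by condition before hybridisation, and the number of arrays limits precision. Intensities were background-corrected, quantile-normalized and put on the log2 scale with neqc of limma 3.58.1 (R 4.3.3, offset 16), and the offset compresses changes of dim probes. One model over 18 arrays and 6 conditions was fitted to all 45281 probes. Samples were grouped by title. Tests were two-sided and adjusted by Benjamini-Hochberg over the probes tested. A gene was represented by the probe brightest over all arrays. Where no array of the dimmer stage detected a probe, its fold is a lower bound, computed against the higher of its own signal and the lowest detected signal. An exact permutation test of 3 against 3 arrays cannot go below p = 0.1 and was not used.

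Genes were named by a rule: Hprt1, the 12 largest non-overlapping rises and falls with a proper symbol, 3 defining markers and up to 4 called members of each of 29 lists, and the 6 largest differences from control each way. The values of some named genes are not reported here, though counts and medians include them. Other list members are given as examples. Members and lists were chosen with earlier results of these data known, and 4 further lists were chosen after values were seen.

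Array numbers in the titles were shared between conditions. Between knockdown SNM and final arrays, deviations of same-numbered arrays from their condition means correlated at 0.13 to 0.55, each best with its own number. Over 18 pairs of SNM and final conditions, control cells included, these correlations ran from -0.14 to 0.68. The titles do not say what the numbers mark. The main model had no term for them, so the SEs and p-values given here leave out any pairing. For the case that the numbers mark pairs, the fit with the number as a block was an alternative. Of 36692 probes with a RefSeq accession 27655 matched the reference table. A second table was used for annotation only, and its 72 columns of values named by chip position were not used. Alternatives covered normalization, filters, the minimum fold, the methods' t-tests, the pairing and leaving out each array.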

Additional observations from a re-analysis of the deposited data

Results flagged for a closer look

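The change from the SNM to the final stage differed between HPRT-knockdown and control cells, by the test of the difference itself, for 3044 probes with a higher change in knockdown cells and 3287 with a lower one. At the 3 probes of Hprt1 the log2 differences were -2.69, -2.44 and -1.83. Myelin and oligodendrocyte genes were among the probes named by rule for higher differences, with 9.49 for Opalin, 8.79 for Mag, 8.58 for Enpp6, 8.11 for Mbp and 7.60 for Sox10. Among the lower differences were those of Myh8 at -10.12, Tnnc2 at -10.05, Myh3 at -9.83, Cox8b at -9.61, Sln at -9.21 and Mylpf at -9.19, all genes of striated muscle. Cox8b and Sln were on no knockdown final array, and Sln had a mean of 4.69 in control SNM, at the limit of detection, so these fitted differences have no exact size. Sizes are uncertain for Opalin too, at 4.64 in knockdown SNM. On knockdown final arrays Tnnc2, at 4.74 and detected on 1 of 3, and Myh3, at 4.84 and detected on 2 of 3, were also near that limit. Of 155 other named probes that were tested, 108 had a called difference. No condition had over 3 arrays, so outlying arrays were not tested.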

How the results depend on the processing

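Named probes were refitted in at most 14 alternatives, which covered normalization, detection filters, array subsets, the replicate block and leaving out arrays. Of 203 named probes, 181 kept their call in all of these, none reversed, and 35 single values lost and 9 gained a call. Other minimum folds, the methods' filters and t-tests and the stricter detection p were applied to the counts only. Many named probes had been picked for large called changes, which favours stable calls. The counts of called probes depended on the processing. With quantile normalization without background correction 1867 probes rose and 1953 fell, and 1792 had a higher difference from control. With 75th percentile scaling 1886 fell and 2115 had a lower difference. With a 2-fold minimum 1333 rose and 1316 fell, with 1223 higher and 1828 lower differences. With no minimum fold these were 5989, 6783, 5423 and 4994. Leaving out 1 array gave 2895 to 2972 rising, 3135 to 3228 falling, 2988 to 3149 higher and 3221 to 3348 lower. With the array number as replicate block, for the case that the numbers mark pairs, 2968 rose and 3146 fell. Among the named probes this block changed the call of Utx alone, at 0.60. The methods' paired t-test gave 2332 rising and 2512 falling after Benjamini-Hochberg adjustment, and their unpaired one 2776 and 3018. Of the recomputed list medians 86 moved by more than the spread between arrays and 117 did not. They changed sign for the astrocyte, cholesterol synthesis and synaptic vesicle lists. With no detection filter the medians of the transmitter, endoderm and midbrain, hindbrain and Hox lists were -0.02, 0.04 and 0.02, against -0.60, 0.48 and 0.69. Over genes detected on every array of both stages the transmitter, ventral forebrain and endothelial medians were -1.73, -2.29 and -0.16, against -0.60, -0.67 and -0.56. Over all alternatives the median ran from 0.14 to 0.27 for fibroblast genes, 0.16 to 0.30 for mature oligodendrocyte genes, -0.44 to -0.26 for the neuronal cytoskeleton, -0.20 to -0.09 for radial glia, -2.85 to -1.66 for muscle and 2.60 to 3.54 for myelin membrane genes. Probes under a log2 signal of about 4.67 to 4.76 were at the limit of detection. A detection p under 0.01, chosen after seeing the data, gave 2862 and 3105.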

Other observations

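The gene groups below were chosen after their values were seen and are given as values only. Genes of complement and the acute phase were higher at the final stage, with 13 of 13 tested genes called and a median of 2.45. Of these, 7 were detected on all SNM arrays, and the others were tested only through the final stage, where they were brighter. Serpina3n, a serine protease inhibitor of reactive glia, had mean log2 signals of 11.02 in the SNM and 14.43 at the final stage. C4a and C4b, whose probes may read each other's near-identical transcripts, went from 5.44 to 9.24 and from 5.37 to 8.60, and Serping1, the inhibitor of complement C1, from 6.03 to 9.34. In control cells 9 of the genes rose and 2 fell, and the difference was called higher in knockdown cells for 5 and lower for 1. C4a had a difference of 4.82 and Serping1 one of 0.07.

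Neuropeptide precursors fell in 8 of 14 tested genes and rose in 0, with a median of -1.11. All 14 were detected on all SNM arrays and 9 on all final arrays, so the rest were tested only through the stage where they were brighter. Pmch, the precursor of melanin-concentrating hormone of the lateral hypothalamus, had a mean log2 signal of 7.66 in knockdown SNM and was detected on no final array, at least 7.56-fold lower. In control cells it was at 4.38 and 4.41. Trh, the precursor of thyrotropin-releasing hormone, went from 11.44 to 8.08 and in control cells from 12.54 to 9.41. Sst, somatostatin, went from 8.48 to 5.79, against 10.54 and 10.46 in control cells.

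Of the Y-linked genes Eif2s3y had log2 signals of 8.79, 9.01 and 9.18 in knockdown SNM and 4.51, 4.86 and 4.96 at the final stage, and in control cells its means were 6.86 and 4.40. Ddx3y, on the same chromosome, had means of 9.44 and 8.91 in knockdown cells and was not called, and Uty, at 4.99 and 4.82, lay near the limit of detection. The X-linked homologue Eif2s3x was at 9.65 and 9.35.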
